A study of Sus scrofa with 12 samples.

Results

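The renin-angiotensin genes described here are AGT, ACE, ENPEP, AGTR1, AGTR2 and ATP6AP2, measured by RNA sequencing in the uterus of newborn gilts (young female pigs). They are 6 of the 20390 genes in the deposited table and 6 of the 16862 that passed the filter on low values, and all 6 members passed it. Members were taken by name from the table. AGT, AGTR1 and ATP6AP2, 3 of the 6, stood there under placeholder names and were found by gene identifier. The set was selected on results of these data: the log2 change of AGT from PND0 to PND2N, among the largest of the table, led to it, and the other 5 were added as genes of the same pathway. The changes below are therefore a description, with no p-value printed for a member, and they support nothing beyond themselves.

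The study compared 3 groups of 4 gilts, with 1 library per animal. All were crossbreds of Landrace, Yorkshire, Duroc and Hampshire stock. PND0 gilts, labelled as not nursed, were killed no later than 1 h after birth. PND2N gilts suckled their dams at will for 48 h, and PND2R gilts were given a commercial milk replacer over the same 48 h. Uteri of both day 2 groups were collected at 50 h of age. Comparisons with birth thus set unnursed newborns against fed gilts of 50 h, so age and feeding cannot be told apart in them. Whole uteri, freed of connective tissue, were kept in RNALater, so each library mixes epithelium, stroma, muscle, vessels and blood cells. No litter, date or batch is named in the labels. In such bulk tissue, fewer cells of a type and less RNA per cell cannot be told apart.

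Angiotensinogen, the product of AGT, is the protein from which angiotensin I is released. Angiotensin-converting enzyme (ACE) turns that peptide into angiotensin II, which acts through the type 1 receptor AGTR1 to contract vessels and smooth muscle and through the type 2 receptor AGTR2, a receptor known for its high levels in fetal tissues and in the uterus. Glutamyl aminopeptidase (ENPEP) trims angiotensin II to angiotensin III, and ATP6AP2 is both a receptor of this system and an accessory subunit of the vacuolar proton pump.

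Values are the authors' normalized values, on a linear scale with 1 as the lowest entry. Library totals ran from 26534074 to 29544130, and 17.8% to 22.1% of the genes stood at 1 in a library. Read depth itself is not known exactly. All 9 uterine markers, among them HOXA10, HOXA11, EMX2 and WNT7A, were above 1 in all 12 libraries. The libraries PND2N 1, PND2R 2 and PND2R 3 stood apart from the other 9. In them VWF, the endothelial clotting factor, was at 24.2, 55.8 and 90.2. Elsewhere it was between 591 and 3194. Among newborns, the epithelial markers split PND0 1 and 2 (list medians of 0.78 and 0.87 on a centred log2 scale) from PND0 3 and 4 (medians of -1.28 and -1.48). Results are therefore given with all libraries and, where they differ, without those 3, a fit that leaves PND2R with 2 libraries.

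Differences below are log2 changes ± SE on the scale log2(value + 1), from 1 limma fit of all 12 libraries with 4 per group. A gene is said to pass, or to have risen or fallen, where its Benjamini-Hochberg adjusted p over all genes tested was below 0.05. Of all genes tested, 3.32% passed in PND2N against PND0 (1.91% higher and 1.41% lower) and 15.0% in PND2R against PND0 (7.70% higher and 7.31% lower). These shares rest on 560 and 2531 genes, and single libraries moved them many-fold. With 1 library left out at a time, the PND2N count ran from 26 (without PND2N 4) to 661 (without PND2N 3). It was under 560 by over 1.5 times without PND0 1 (185), PND0 3 (228), PND0 4 (40), PND2N 1 (92), PND2N 2 (128), PND2N 4 (26), PND2R 2 (336) or PND2R 4 (198), and was 7 with only the groups compared. The PND2R count fell as far without PND0 1 (1637), PND0 3 (1348), PND0 4 (862), PND2R 2 (543) or PND2R 3 (567), and rose to 4109 without PND2N 1. Beside the shares from all 12 libraries, AGT passed in the first comparison and AGT and ATP6AP2 in the second, which are 1 and 2 of 6 members, all higher. Because the AGT change in the first comparison led to the set, its pass there is no result about the members. Between PND2N and PND2R, 0.0119% of genes passed and 0 of 6 members did. At an unadjusted p below 0.05 that last contrast held 452 of the genes tested, and again 0 members. The median log2 change over the members was 0.10, 0.06 and 0.03 in the 3 comparisons, and over all genes tested it was -0.04, -0.06 and 0.03. Both comparisons with birth share the PND0 libraries, so their agreement is no independent result.

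**Figure D1:**
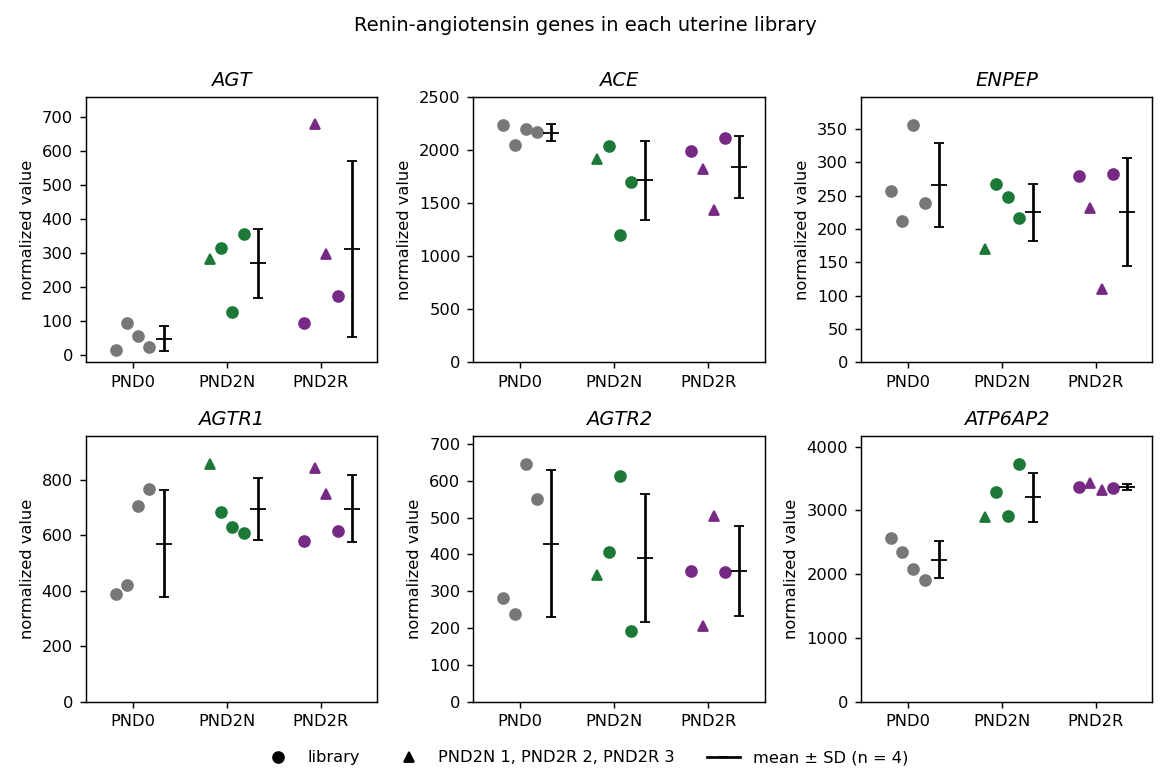
Normalized value (linear scale, vertical axis) of each of the 6 genes in each of the 12 libraries, by group, with the mean and SD of 4 libraries beside each group and triangles for PND2N 1, PND2R 2 and PND2R 3. AGT lies between 16.1 and 95.2 in PND0 and between 94.1 and 677 at day 2, and ATP6AP2 is higher in all 8 day 2 libraries than in any PND0 library.

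AGT, the sole precursor of angiotensin peptides, showed the largest fitted change of the 6. Its entry lies on chromosome 14, from 65095581 to 65104304 on the plus strand (Sscrofa10.2, positions of the deposited table), and no other entry of the table overlaps it. In PND0 it stood at 16.1, 95.2, 56.9 and 23.6 (mean 48.0 ± 36.2, SD, n = 4). In PND2N it stood at 283, 315, 125 and 355 (269.8 ± 101). In PND2R it stood at 94.1, 677, 296 and 174 (310.3 ± 258). Every nursed library was above every newborn one, while PND2R 1, the lowest replacer-fed library, fell just under PND0 2. The replacer-fed libraries were the most scattered on the linear scale, and the highest of them, PND2R 2, is one of the 3 libraries that stood apart.

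From birth, AGT rose by 2.69 ± 0.66 in nursed gilts and by 2.62 ± 0.66 in replacer-fed gilts, or 6.45-fold and 6.15-fold on the log2(value + 1) scale. Nursed and replacer-fed gilts differed by 0.07 ± 0.66, a difference well within its error. Without the 3 libraries the change from birth was 2.63 ± 0.62 in PND2N and 1.72 ± 0.70 in PND2R, and neither passed. With single libraries left out, the PND2N call ended in 8 of 12 fits (without PND0 1, 3 or 4, PND2N 1, 2 or 4, or PND2R 3 or 4). The PND2R call ended in 4 of 12 (without PND0 1 or 4, or PND2R 2 or 3).

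Liver and fat are known sources of angiotensinogen. Of 7 hepatocyte markers in the table, AHSG and TTR were at 1 in 11 of 12 libraries each, ALB ran from 8.57 to 77.1 and TF from 26.6 to 179. APOA1 was plentiful (3038 to 9643), FGB ran from 64.3 to 362 and SERPINA1 from 2.30 to 56.2. The summed value of the list ran from 3215 to 6286 at birth, from 3879 to 9983 in nursed gilts and from 3292 to 8209 in replacer-fed gilts. Of the 5 hepatocyte markers tested, 4 had a change above 0 in each comparison with birth, as AGT did, with medians of 0.69 and 0.33, and 0 passed. FGB (1.26 ± 0.47) and SERPINA1 (1.74 ± 0.60) had the largest changes, both in PND2N.

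Of 5 adipocyte markers in the table, 3 were tested, and these 3 had changes below 0 in both comparisons with birth. ADIPOQ was at 1 in all 12 libraries, LEP reached no more than 2.22 and PLIN1 no more than 19.4. LPL ran from 15.5 to 610 and CIDEC from 6.16 to 43.2, and both fell in PND2R (-3.44 ± 0.57 and -1.55 ± 0.38). Without the 3 libraries that stood apart, 1 of the 3 tested passed in each comparison with birth, and it was lower. The summed value of these 5 adipocyte genes ran from 372 to 669 at birth, from 70.7 to 222 in nursed gilts and from 33.9 to 107 in replacer-fed gilts. At birth that sum was mostly LPL.

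The 6 macrophage markers were mixed. The summed value of the list ran from 3500 to 7531 in PND0, from 7679 to 9684 in PND2N and from 6743 to 10456 in PND2R, and 2 of its 6 genes, C1QB and C1QC, rose in both comparisons with birth. C1QA and AIF1 had changes above 0 and did not pass. CSF1R had changes below 0 (-0.33 ± 0.22 in PND2N and -0.69 ± 0.22 in PND2R), with every PND2R library under every newborn one, and so did CD14 (-0.17 ± 0.45 and -1.10 ± 0.45), which was low throughout (1 to 9.79). The part of these 3 cell types in the AGT values was not tested.

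Of the 10 listed transcription factors known to act at the AGT gene, 1 rose and 0 fell in nursed gilts, and 2 rose and 1 fell in replacer-fed gilts. Their median change was -0.07 and -0.06, close to that of all genes. The estrogen receptor ESR1 rose from 2207 ± 1066 at birth to 5638 ± 1517 in PND2N (1.46 ± 0.33, limma adjusted p = 0.0404) and 4887 ± 977 in PND2R (1.27 ± 0.33, limma adjusted p = 0.0286). In this entry, the higher on average of 2 for ESR1, every day 2 library exceeded every newborn one. The E-box factor USF1 rose by 0.89 ± 0.21 in PND2R (limma adjusted p = 0.0227), and its partner USF2 fell by 1.14 ± 0.34 there (limma adjusted p = 0.0419). None of these calls held without the 3 libraries, where the ESR1 changes from birth were 1.51 ± 0.38 and 1.51 ± 0.43. With single libraries left out, the ESR1 call held in PND2N only without PND0 3 or PND2R 1 and ended in PND2R without PND0 1 or 2 or PND2R 2, 3 or 4. The USF1 call ended without PND0 3 or 4 or PND2R 2 or 3, and the USF2 call held only without PND0 3, PND2N 1, PND2N 3 or PND2R 1.

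The enzymes moved less. ACE (chromosome 12, 16065624 to 16085433, minus strand) was nearly constant among newborns, at 2237, 2052, 2196 and 2172. It was 1919.8, 2043, 1199.6 and 1697 in PND2N, all under the lowest newborn value. In PND2R it was 1995, 1822, 1440.1 and 2113, which overlapped the newborn range. The changes from birth were -0.36 ± 0.18 in nursed and -0.25 ± 0.18 in replacer-fed gilts, and neither passed. PND2N and PND2R differed by -0.12 ± 0.18. Without the 3 libraries the values were -0.43 ± 0.19 and -0.08 ± 0.21.

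ACE is known as an enzyme of endothelial cells, and the 9 endothelial markers measured were mixed at day 2. In PND2N 3 of 9 had a change above 0 (median -0.28) and in PND2R 2 of 9 (median -0.65). The summed value of the list ran from 11877 to 18628 in PND0, from 10501 to 15368 in PND2N and from 8688 to 9058 in PND2R, so that PND2N overlapped PND0 and PND2R did not. TIE1, an endothelial receptor kinase, fell in both (-1.28 ± 0.25 in PND2N and -1.82 ± 0.25 in PND2R), and the adhesion molecule PECAM1 fell by 0.77 ± 0.23 in PND2R. Without the 3 libraries that stood apart, 1 of the 9 passed in PND2N and 2 in PND2R, all lower. KDR (0.31 ± 0.18 and 0.08 ± 0.18) and ESAM (0.32 ± 0.33 and 0.07 ± 0.33) had changes above 0 in both day 2 groups and TEK in PND2N (0.21 ± 0.32), and none of these passed. The lowest ACE library, PND2N 3, had an endothelial sum of 10645. The PND2R libraries, with sums of 8688 to 9058, had ACE between 1440 and 2113. The part of endothelial content in the ACE values was not tested. Next to ACE the table holds a second entry described as resembling it, which is not a member and was singled out after its values were seen. It stood at 4.60, 17.3, 10.4 and 29.9 in PND0 and at no more than 3.82 in any day 2 library, and how reads shared by similar copies were counted is not stated, which leaves the ACE values uncertain to that extent.

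ENPEP (chromosome 8, 118444745 to 118538859, minus strand) showed no group difference beyond its spread. It was 256, 212, 356 and 239.8 in PND0, 169, 268, 248 and 216 in PND2N, and 279.7, 231, 109.6 and 282 in PND2R. The groups overlapped, and the lowest value of all was in PND2R 3, one of the 3 libraries that stood apart. The changes from birth were -0.23 ± 0.32 and -0.30 ± 0.32, and without the 3 libraries -0.10 ± 0.24 and 0.11 ± 0.27. Related M1 aminopeptidases gave 1 gene higher and 0 lower of 9 in each comparison with birth. That gene was LTA4H, which makes leukotriene B4, at 0.69 ± 0.17 in PND2N (limma adjusted p = 0.0483) and 0.66 ± 0.17 in PND2R (limma adjusted p = 0.0271). It is the higher on average of 2 entries for this gene, and it did not pass without the 3 libraries. With single libraries left out, its PND2N call held only without PND2N 3, and its PND2R call ended without PND0 1 or 4 or PND2R 2 or 3.

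**Figure D2:**
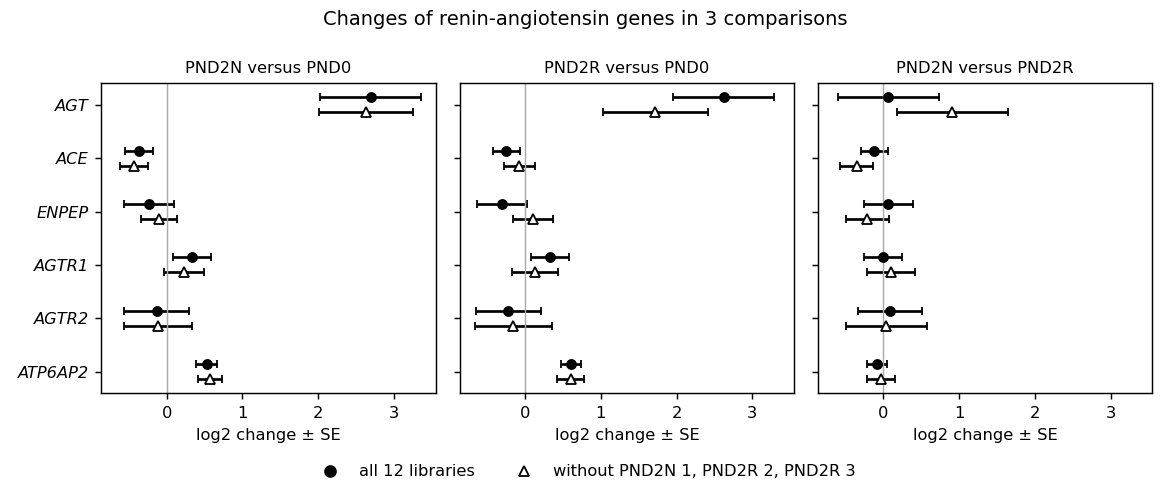
Log2 change ± SE (horizontal axis) of the 6 genes in the 3 comparisons, from all 12 libraries (circles) and without PND2N 1, PND2R 2 and PND2R 3 (triangles). AGT in PND2R against PND0 moves from 2.62 to 1.72 without them, while ATP6AP2 moves from 0.61 to 0.60.

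Neither angiotensin receptor passed in any comparison, and in both the newborn libraries differed among themselves more than the group means did. AGTR1 (chromosome 13, 94735637 to 94780920, plus strand) was 387, 422, 707 and 767 in PND0. It was 856, 684, 631 and 608 in PND2N and 579.6, 843, 749.9 and 615 in PND2R. PND0 1 and 2 were the lowest of all 12 libraries, and PND0 3 and 4 lay within the day 2 range. The highest level in each day 2 group belonged to a library that stood apart (PND2N 1 and PND2R 2). The changes from birth were 0.33 ± 0.25 and 0.34 ± 0.25, and without the 3 libraries 0.23 ± 0.26 and 0.13 ± 0.30.

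AGTR2 (chromosome X, 101263896 to 101266595, minus strand) was 283, 238, 645 and 550.5 in PND0, 345, 407, 612 and 192 in PND2N, and 354, 206, 504 and 352 in PND2R. PND0 1 and 2 were again below PND0 3 and 4, and the 3 groups overlapped. The changes from birth were -0.13 ± 0.42 in nursed and -0.22 ± 0.42 in replacer-fed gilts. The SE of 0.42 is the second largest of the 6 genes, after that of AGT. The log2 ratio of AGTR2 to AGTR1 within a library averaged -0.47 ± 0.28 in PND0 (SD, n = 4), -0.94 ± 0.71 in PND2N and -1.03 ± 0.67 in PND2R. The groups overlapped in this ratio too: it ran from -0.83 to -0.13, from -1.66 to -0.04 and from -2.03 to -0.57.

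The newborn split in both receptors was also seen in several marker lists. PND0 1 and 2, where both receptors were low, had summed epithelial values of 95308 and 101440, and PND0 3 and 4 had 27373 and 21286. Pericyte sums (8950 and 11155 against 25259 and 21187) and endothelial sums (13684 and 11877 against 18628 and 18356) ran with the receptors. Neprilysin (MME), a peptidase that can make angiotensin-(1-7), went the other way from the receptors, at 4048 and 3505 against 1827 and 1559. So did AGTRAP, a protein that binds AGTR1 and promotes its internalization, at 2519 and 2488 against 1127 and 1066. Among day 2 libraries PND2N 1, which stood apart, had the highest epithelial median (0.39). It also had the highest AGTR1 (856), the highest AGTRAP (3453) and the lowest MME (1674) of day 2. PND2R 2 and 3, which stood apart as well, came next in AGTR1 (843 and 750), AGTRAP (2611 and 3033) and low MME (2141 and 1891). AGTR2 was mixed in these 3 libraries (345, 206 and 504). PND2R 1 and 2 had similar epithelial medians (0.16 and 0.13) and AGTR1 of 580 and 843. Smooth muscle sums were also the highest in the 3 libraries (342680, 267940 and 270050). The 2 newborn pairs are not groups of the study, and the part of tissue makeup in the receptor values was not tested.

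**Figure D3:**
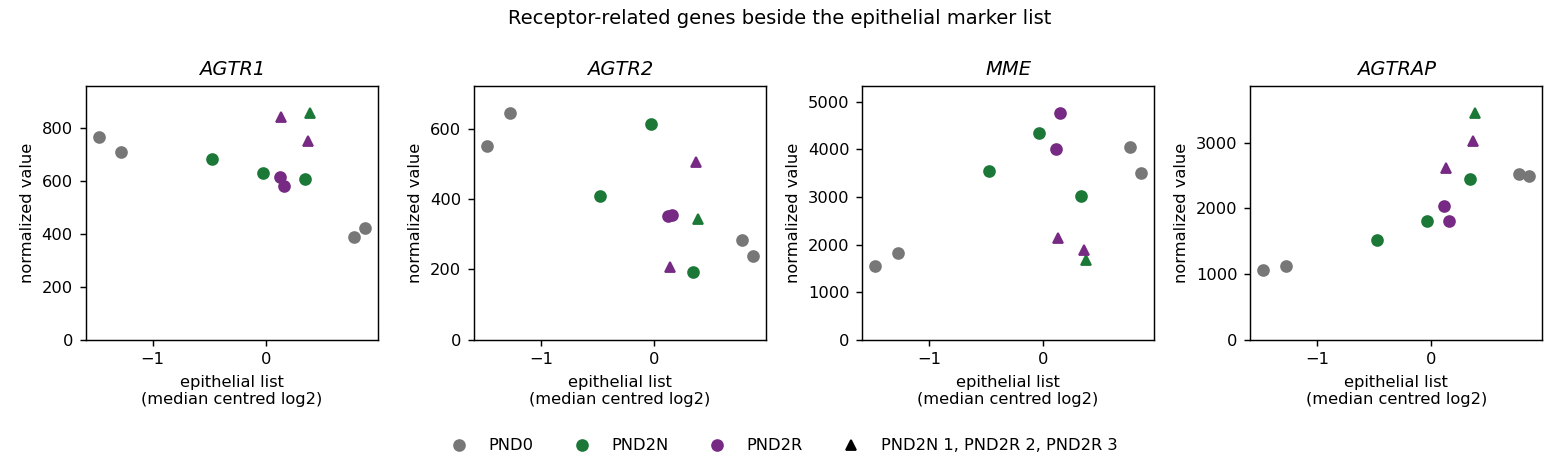
Normalized value (vertical axis, linear) of AGTR1, AGTR2, MME and AGTRAP against the median centred log2 of the epithelial markers (horizontal axis), 1 point per library. In PND0 the low-epithelium pair (AGTR1 707 and 767) and the high-epithelium pair (AGTR1 387 and 422) lie at opposite ends of the horizontal axis, with the day 2 libraries between them.

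Downstream of the receptors, 0 of 20 signalling genes passed in nursed gilts, and 0 rose and 1 fell in replacer-fed gilts. The gene that fell was GNA12, a G protein alpha subunit, from 7114 ± 363 to 4651 ± 726 (-0.62 ± 0.15, limma adjusted p = 0.0223), with no overlap of the groups. Without the 3 libraries its change was the same size, -0.62 ± 0.16, and did not pass. It also did not pass without PND0 4 or without PND2R 3.

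ATP6AP2 (chromosome X, 38618186 to 38647313, plus strand) was higher at day 2 in every library. It was 2575, 2341, 2075 and 1912 in PND0, 2893, 3288, 2907 and 3721 in PND2N, and 3369, 3436, 3319 and 3346 in PND2R. All 8 day 2 libraries were above all 4 newborn ones, and the 4 replacer-fed libraries lay within an SD of 50.2 around 3367. The change from birth was 0.53 ± 0.13 in nursed gilts, which did not pass, and 0.61 ± 0.13 in replacer-fed gilts, which did. Those are 1.44-fold and 1.52-fold. The feeding groups differed by -0.08 ± 0.13.

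Without the 3 libraries the changes of ATP6AP2 were 0.57 ± 0.16 and 0.60 ± 0.18, so the size held and the call did not. Leaving out PND2R 2 or PND2R 3 alone also ended the PND2R call. Counting groups with no overlap, AGT, ACE and ATP6AP2 (3 of 6 members) were apart between PND2N and PND0, where 16.0% of all genes were. Only ATP6AP2 (1 of 6) was apart between PND2R and PND0, where 28.3% were, and 0 of 6 between PND2N and PND2R, where 2.55% were.

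The vacuolar ATPase, the proton pump that ATP6AP2 belongs to, leaned the same way. Of 18 subunits tested, 0 passed in nursed gilts, where 3.32% of all genes did. In replacer-fed gilts 4 rose and 0 fell, where 7.70% of all genes rose and 7.31% fell. The median change was 0.49 and 0.48, against medians near 0 for all genes. In each comparison 14 of 18 were above 0, against 47.5% and 47.0% of all genes. ATP6V0E1 of the membrane sector rose by 1.02 ± 0.25 (limma adjusted p = 0.0240) and ATP6V0D1 by 0.85 ± 0.24 (limma adjusted p = 0.0342). In the catalytic sector ATP6V1C1 rose by 0.65 ± 0.19 (limma adjusted p = 0.0371) and ATP6V1D by 0.61 ± 0.15 (limma adjusted p = 0.0244). The day 2 values of these 4 genes were all above their newborn values in both feeding groups. Over the list, 8 of 18 did not overlap PND0 in PND2N and 7 of 18 in PND2R, in either direction. Of all genes, 16.0% and 28.3% did not. ATP6V0A2, singled out after its values were seen, was lower in PND2N 1, PND2R 2 and PND2R 3, at 202 to 230, than in the other 9 libraries, at 468 to 775.

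Without the 3 libraries, 0 of the 18 subunits passed and the medians were 0.38 and 0.39. Each of the 4 calls also ended without PND0 4, PND2R 2 or PND2R 3 alone. Those of ATP6V0D1, ATP6V0E1 and ATP6V1C1 ended without PND0 3, those of ATP6V0D1 and ATP6V1C1 without PND2N 4, and that of ATP6V1C1 without PND2N 2 or PND2R 4. Macrophage markers were mixed, as given above for AGT. C1QB and C1QC were higher at day 2, with no call left without the 3 libraries, and CSF1R and CD14 had changes below 0. The part of macrophages here was not tested.

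**Figure D4:**
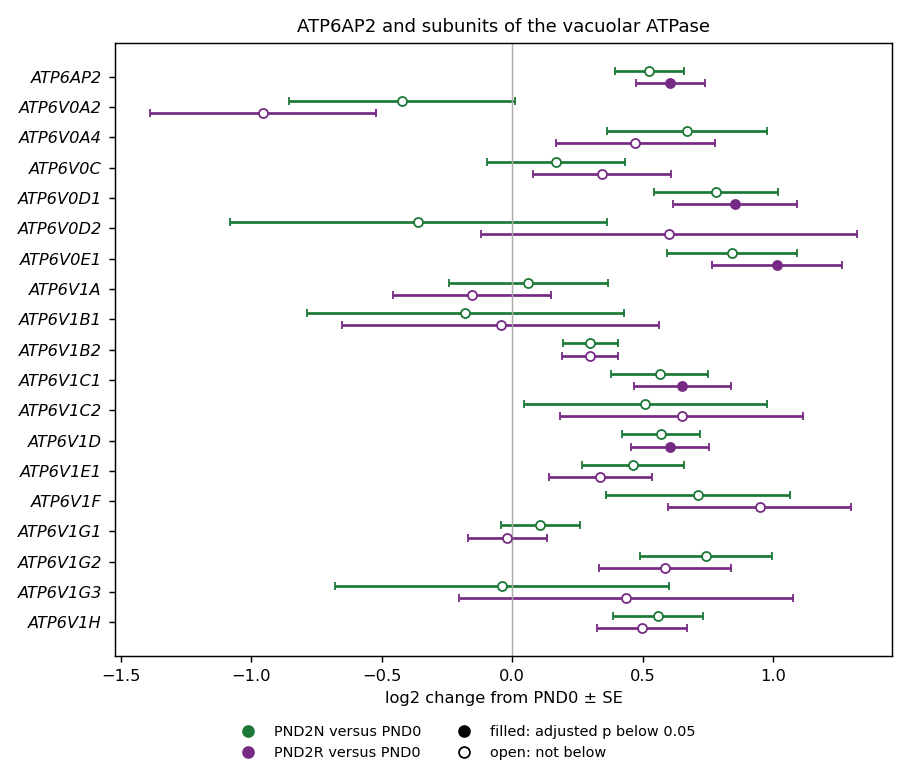
Log2 change from PND0 ± SE (horizontal axis) of ATP6AP2 and 18 subunits of the vacuolar ATPase in PND2N (green) and PND2R (purple), with filled points where the adjusted p was below 0.05. Filled points are ATP6AP2, ATP6V0D1, ATP6V0E1, ATP6V1C1 and ATP6V1D, all in PND2R.

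Of 22 other renin-angiotensin genes listed, 17 were in the table and tested. In each comparison with birth 1 of 17 rose and 1 fell, and between the feeding groups 0 passed. Prolylcarboxypeptidase (PRCP), which cleaves angiotensin II to angiotensin-(1-7), stood at 735.5, 698.5, 1092 and 770.7 in PND0. It was 1262, 1390, 1374 and 1540 in PND2N and 1133, 1484, 1130 and 1180 in PND2R, above every newborn library. It rose by 0.77 ± 0.17 (limma adjusted p = 0.0363) and by 0.59 ± 0.17 (limma adjusted p = 0.0403).

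ZBTB16, a zinc-finger factor that binds AGTR2 and ATP6AP2 and is also a well-known glucocorticoid target, was 646, 500.2, 824 and 1176 in PND0. It was 2.42, 54.0, 94.1 and 97.8 in PND2N and 55.4, 3.54, 4.40 and 30.4 in PND2R. It fell in PND2N (-4.36 ± 1.07, limma adjusted p = 0.0492) and in PND2R (-5.70 ± 1.07, limma adjusted p = 0.0113). Its lowest 3 values were those of the libraries that stood apart. Without them its changes were -3.22 ± 0.37 and -4.15 ± 0.42 and still passed (limma adjusted p = 0.0136 and 0.00653), while PRCP no longer passed (0.82 ± 0.19 and 0.51 ± 0.21). With single libraries left out, the PND2R call of ZBTB16 held in all 12 fits. Its PND2N call held in 2 (without PND2N 3 or PND2R 1). The PRCP calls ended in 8 of 12 fits in each comparison. In PND2N the call held only without PND0 3, PND2N 3, PND2R 1 or PND2R 2, and in PND2R only without PND0 3, PND2N 1, PND2N 3 or PND2R 1.

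Some genes of the list were hardly detectable. MAS1, the receptor for angiotensin-(1-7), ran from 1 to 10.02 and was at 1 in all 4 PND2R libraries. KLK1, a tissue kallikrein, ran from 1 to 11.7. Values this close to the table's minimum are not read as differences.

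Several peptidases and receptor partners differed most between the 3 libraries and the rest. LNPEP, known as the angiotensin IV receptor, was at 32.9, 26.5 and 59.1 in them and at 252 to 869 elsewhere. MTUS1, an AGTR2-interacting protein, was at 253, 375 and 344 against 1002 to 3068. Neurolysin (NLN) was at 26.0, 15.7 and 11.0 against 42.9 to 148. Prolyl endopeptidase (PREP) was higher in every day 2 library (2489 to 2932) than in any newborn one (1789 to 2263), at 0.46 ± 0.13 and 0.35 ± 0.13, and did not pass. The other peptidases, CTSA, THOP1, DPP3, ANPEP and CMA1 (chymase), did not pass either.

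**Figure D5:**
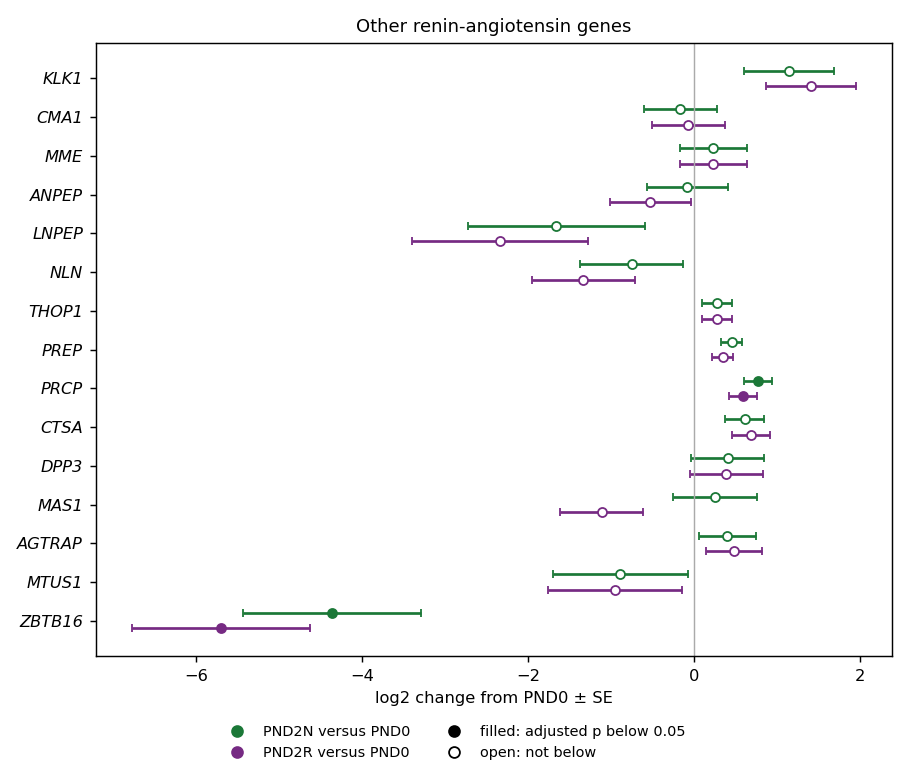
Log2 change from PND0 ± SE (horizontal axis) of 15 of the other renin-angiotensin genes in PND2N (green) and PND2R (purple), with filled points where the adjusted p was below 0.05. PRCP (0.77 and 0.59) and ZBTB16 (-4.36 and -5.70) are the filled genes, and ZBTB16 and LNPEP carry the widest error bars.

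Genes of neighbouring hormone systems are given beside the shares of all genes that passed, 3.32% in PND2N and 15.0% in PND2R against PND0. Their small counts are not read as results about these systems. Of 10 mineralocorticoid-axis genes, 0 passed in PND2N and 1 fell in PND2R, the mineralocorticoid receptor NR3C2 (from 45.6 ± 23.5 to 8.04 ± 8.76, -2.91 ± 0.88, limma adjusted p = 0.0461). It was at 1 in PND2R 2 and 3, and without the 3 libraries its change was -1.43 ± 0.64 and did not pass. Of 7 kallikrein-kinin genes, SERPING1, the C1 inhibitor that also blocks plasma kallikrein, rose by 0.99 ± 0.23 in PND2N (limma adjusted p = 0.0425) and by 1.11 ± 0.23 in PND2R (limma adjusted p = 0.0142). Of 17 genes of other vasoactive peptides, the natriuretic peptide receptor NPR1 fell by 0.75 ± 0.22 in PND2R (limma adjusted p = 0.0448). Among the 8 pathway lists, without the 3 libraries, SERPING1 in PND2N (0.84 ± 0.17, limma adjusted p = 0.0476) was the only call left beside ZBTB16. With single libraries left out, the NR3C2 call held only without PND2N 1, PND2N 3, PND2R 1 or PND2R 4, and the NPR1 call only without PND0 2 or PND2N 1. The SERPING1 call held in PND2N only without PND2N 3, PND2R 1 or PND2R 3 and ended in PND2R without PND2R 2 or 3.

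Most pairs of members varied largely apart from each other. Over the 12 libraries, Pearson r of log2 values was 0.76 for AGT with ATP6AP2, and 0.15 with group means taken out. ATP6AP2 had r of 0.14 with AGTR1 and -0.46 with AGTR2, and of -0.72 and -0.75 once group means were taken out. The genes most like each member were looked for among 12188 named genes by Pearson r over the 12 libraries, which share depth and tissue makeup. AGT was followed most closely by EFCAB2 (0.97), RGS10 (0.96) and MAOB (0.96). AGTR1 was followed by CASQ1 (0.98), DRK1 (0.98) and RIPOR3 (0.96), and ATP6AP2 by IGBP1 (0.99), C1H14orf166 (0.98) and ASCC1 (0.98). For ENPEP the nearest were SYT16 (0.91), FNBP1L (0.89) and STRADA (0.89). AGTR2 had ERCC6 (0.88), IQCG (0.87) and KCNC4 (0.86), and ACE had ZCWPW2 (0.84), RHOB (0.75) and GLTPD2 (0.74). With group means taken out, r for these 18 genes lay between 0.60 for GLTPD2 and 0.98 for CASQ1. KCNC4 ran only from 1 to 4.71, ZCWPW2 from 1.09 to 46.5 and SYT16 from 2.11 to 63.0. The r of these rests at least partly on values near the table's minimum. All 18 genes were picked as the highest of a search through 12188 and are given as description.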

How the data were processed

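Whole-uterus RNA was isolated with a column kit and made into libraries with an mRNA kit, per the labels' protocols. The deposited signal is 1 normalized linear value per gene and library, made by the authors. The submitters' processing notes name bcl2fastq and the build Sscrofa10.2. What aligner, counting, strand setting and normalization were used is not given in the sources used here. Whole multiples of 1 step (tolerance 0.02 steps) made up only 42.9% to 60.0% of low values, so counts of reads could not be rebuilt and count models were not used.

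Values were taken as log2(value + 1), and genes above 1 in at least 4 of 12 libraries were tested (16862 of 20390). A single linear model (limma 3.58.1 with statmod 1.5.0, under R 4.3.3) had trended, robust empirical Bayes moderation and two-sided contrasts. Its p-values were adjusted by Benjamini-Hochberg across the tested genes, and the threshold was 0.05. The labels do not say whether animals were littermates, so p-values measure only the spread between these gilts. The fit was tested on simulated data with noise drawn independently for each gene and library. Those data held no shift of whole libraries like that of the 3 that stood apart. They therefore do not bear on how single libraries moved the calls. Python 3.11.15 made the tables (pandas 2.3.3, numpy 2.4.6) and the plots (matplotlib 3.10.9).

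Placeholder entries took names from RefSeq of Sscrofa11.1 by gene identifier, with no coordinates from it, and 4 list genes by their description (CMA1, CPM, ATP6V1B2, NPR3). Of 138 entries in 8 pathway lists 112 were matched, and of 91 in 12 marker lists 76. ESR1 and LTA4H had 2 entries each, and only the entry with the higher mean over the libraries was used. Values of the other entry are not reported here. The members and the lists were chosen with earlier results of these data known, as was the setting without PND2N 1, PND2R 2 and PND2R 3. Named genes are all members, any other renin-angiotensin gene, the genes past the threshold in each other list (at most 5), the 3 genes most like each member, and marker genes that move with a member. Some genes of the lists are not reported here. Levels are not compared between genes, since transcript lengths were not used here. As alternatives, 0.1 or 5 was added in place of 1, the filter was dropped or set at 10, and the fit was repeated with median-of-ratios scaling, quantile normalization, only the groups compared, plain empirical Bayes, library quality weights, the fit without those 3 libraries, and each library left out.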

Additional observations from a re-analysis of the deposited data

How the results depend on the processing

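The number of members past the threshold depended on the settings. In PND2N against PND0 it was 1 of 6. It became 2 with an added value of 5, with the filter above 10 and with library quality weights. It became 0 with median-of-ratios scaling, with plain empirical Bayes, with only the groups compared and without PND2N 1, PND2R 2 and PND2R 3, and ran from 0 to 1 with single libraries left out. In PND2R against PND0 it was 2. It became 0 without those 3 libraries and ran from 0 to 2 with single libraries left out. For the 17 other renin-angiotensin genes the number in PND2N against PND0 was 2. It became 1 with an added value of 0.1, median-of-ratios scaling, plain empirical Bayes or without the 3 libraries, became 0 with only the groups compared, and ran from 0 to 2 with single libraries left out. In PND2R against PND0 it was 2, became 1 with median-of-ratios scaling, quantile normalization, without the 3 libraries or with only the groups compared, and ran from 1 to 4 with single libraries left out. The cause was not tested.

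Over 22 alternatives per comparison, AGT kept its direction from birth in all (2.29 to 3.12 in PND2N, 1.72 to 3.07 in PND2R) and passed in 9 and 17. ATP6AP2 also kept it (0.45 to 0.60 and 0.54 to 0.68) and passed in 4 and 19. ACE was below 0 and AGTR1 above 0 in all 22 of each comparison with birth. AGTR2 changed sign in 3 and 2 of them, and ENPEP in 0 and 3. Without the 3 libraries, 275 and 284 of 16671 genes passed from birth, against 560 and 2531 of 16862. Of all genes, 7 passed in PND2N against PND0 with only the groups compared and 859 of 20390 with no filter, and single libraries left out gave 26 to 661 there and 543 to 4109 in PND2R against PND0. No paired analysis was possible because the replicate numbers follow accession order and pair no animals.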

Other observations

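Within single groups the values standing farthest from their neighbours, by the gap to the nearest library divided by the range of the group, were ENPEP in PND2R 3 (0.79) and AGT in PND2N 3 (0.78). Each was the lowest of its group, and no member in any group was past Dixon's limit for 4 samples.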
